A study of Homo sapiens with 12 samples.

Results

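Proteasome genes were followed in K562 cells, an established human line of chronic myeloid leukemia cells, upon inhibition of the deubiquitinase USP7. The genes were chosen by name, as protein-coding genes of GENCODE release 44 whose symbol starts with PSMA to PSMG followed by a digit, without use of any measured value. This gave 50 of the 60609 genes in the count files. RNA-seq was done on 3 libraries of cells given the solvent DMSO and 3 libraries of cells given the USP7 inhibitor FT671 at 10 μM, both for 48 h. No genetic change was labelled in either group, and the labels give the replicates by number alone, while the paper describes them as independent experiments. P-values measure the spread between these libraries. The series also has 6 ChIP-seq samples of histone marks after 24 h, which were not analysed here. Values of the libraries are given below in the order of replicates 1, 2 and 3.

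The proteasome degrades proteins that carry ubiquitin chains. Its core particle is a barrel of alpha rings (PSMA subunits), which gate the entrance, and beta rings (PSMB subunits), of which PSMB5, PSMB6 and PSMB7 cut peptide bonds. The regulatory particle on its end binds, unfolds and feeds in substrates through a ring of ATPases (PSMC subunits) and a set of non-ATPase subunits (PSMD subunits). PSME proteins are activators that open the core, PSMF1 was described as an inhibitor, and PSMG proteins together with PSMD5, PSMD9 and PSMD10 are chaperones that help to build the particles. Cells that lose proteasome activity are known to raise the transcription of proteasome genes together, largely through the transcription factor NFE2L1.

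The libraries held between 4555220 and 14250500 counts, at which 3 counts, taken as the limit of detection, stand for 0.207 to 0.664 CPM, the read count of a gene scaled to a common library size. This limit covers counting error only. The intervals given below for log2 fold changes come from the edgeR fit and, like the p-values, take in the spread between libraries. The 7 marker genes of K562 cells summed to 603 to 698 CPM in DMSO and 542 to 597 CPM upon FT671. Of the 6 that passed the filter on low counts, 4 fell, among them TAL1 (139 to 72.4 CPM) and KLF1 (150 to 85.6 CPM), and 2 rose, HBG1 (36.8 to 98.7 CPM) and HBG2 (28.2 to 66.7 CPM). Of the 6 markers of other blood cells MS4A1 had no count in any library, and all together summed to 4.97 to 6.39 CPM in DMSO and 4.32 to 5.98 CPM upon FT671. CPM are relative to all RNA counted, so a change in the RNA content per cell and a change in cell number cannot be told apart from them. USP7 itself, the target of the compound, gave 118, 107 and 131 CPM in DMSO and 29.2, 34.0 and 35.7 CPM upon FT671 (log2 fold change −1.82, SE 0.104, adjusted p = 2.65e-08).

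Upon FT671 treatment most proteasome genes were modestly higher. Of the 47 members that passed the filter, 27 rose and 2 fell at an adjusted p-value of 0.05, which is 57.4% and 4.26% of those tested. Over all 13895 genes tested, 23.6% rose and 26.5% fell by the same test. Calls were made with the quasi-likelihood test of edgeR, with p-values adjusted by Benjamini-Hochberg over every gene tested. At the stricter adjusted p-value of 1e-05 used in the study's methods, a single member, the core assembly chaperone PSMG1, rose and none fell, against a background of 1.79% rising and 4.13% falling (3 members were lower at an unadjusted p under 0.05). DESeq2's Wald test, the tool of the study, called 7 members higher at 1e-05 (PSMB3, PSMB7, PSMD1, PSME1, PSME2, PSME3 and PSMG1) and PSMD3 lower, where 5.06% of all genes rose and 7.36% fell.

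The changes were small. The median log2 fold change of the 47 members was 0.27, against −0.01 over all genes tested, and 39 of them were positive. The median size of the change regardless of sign was 0.29 for the members and 0.36 for all genes. In 28 members every FT671 library lay above every DMSO library (26.8% of all genes did so), and in 3 every FT671 library lay below (30.3%). Summed over all members, the level was 5514, 5647 and 5336 CPM in DMSO and 6550, 6574 and 6550 CPM upon FT671, a mean rise of 19.3%.

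**Figure D1:**
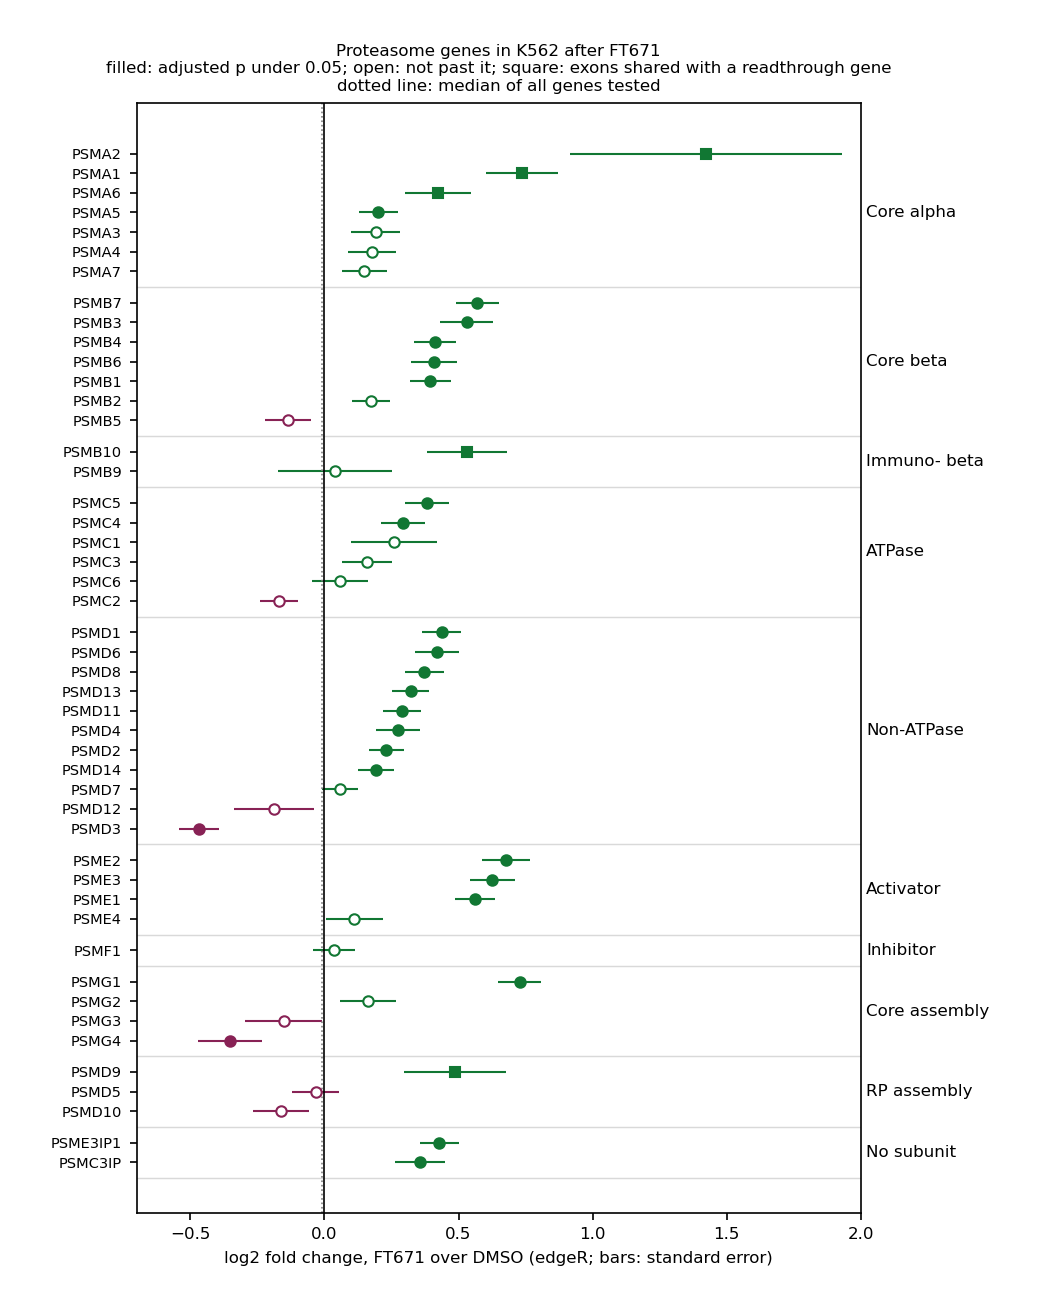
Log2 fold changes, FT671 over DMSO, of the 47 members that passed the filter on low counts, grouped by role (edgeR, 3 libraries a group, bars are standard errors). Most lie to the right of 0, with PSMD3 and PSMG4 as the filled points on the left and PSMA2, which had few counts, with the widest bar.

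The other 3 members were not tested. PSMA8, a testis form of an alpha subunit, and PSMB11, the beta subunit of the thymoproteasome, had 0 counts in all 6 libraries. PSMB8 had 7, 7 and 6 counts in DMSO and 1, 3 and 2 upon FT671, too few to give a fold. Of those tested, PSMC3IP and PSME3IP1 match the symbol rule without being parts of the proteasome, PSMC3IP being a factor of homologous recombination and PSME3IP1 a binding partner of PSME3. Both rose, PSMC3IP from 46.5, 49.2 and 50.1 CPM to 56.7, 67.8 and 61.6 CPM (log2 fold change 0.36, adjusted p = 0.00595) and PSME3IP1 from 91.3, 94.4 and 95.1 CPM to 131, 125 and 122 CPM (0.43, adjusted p = 0.000258). Without them, 25 of 45 proteasome genes rose and 2 fell.

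Promoter sequences were looked at because the members moved largely together. RefSeq promoter windows (GRCh38.p14, 250 bases before to 50 bases after a transcript start) were at hand for 44 of the 50 members, in 55 windows. The pattern TGANNNNGC is a loose form of the core of the antioxidant response element, which NFE2L1 and NFE2L2 bind. It occurred on either strand in 61.8% of the members' windows and in 41.8% of all 35116 windows. Counted by gene, it was found for 29 of the 44 members (65.9%) and for 47.1% of all 27305 genes with windows. Among the members it was found for 15 of 23 that rose, 1 of 2 that fell and 10 of 16 that did not pass the test. The untested PSMA8, PSMB8 and PSMB11 had it as well. Whether these shares differ was not tested. The ETS core CCGGAA occurred in 45.5% of the members' windows and 17.2% of all, the GC box GGGCGG in 70.9% and 45.0%, the CCAAT box in 43.6% and 34.6%, and the NRF1 palindrome in 3.64% and 1.24%. The GC box and the ETS core can overlap other GC-rich motifs, and a match is a description of letters, not of a bound site.

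Stretches upstream of the annotated gene start are shown for 5 members that mark the range of the results: PSMG1, with the smallest p-value of the members, the activator PSME1, PSMB3, the core subunit with the highest level per length, the catalytic subunit PSMB5, and PSMD3, which fell. Each is given 5′ to 3′ on the strand of its gene, with matches to TGANNNNGC, or to its reverse complement, in capitals. They lie at chr21:39183489-39183601 (minus strand, 113 bases) for PSMG1, chr14:24136044-24136162 (plus strand, 119 bases) for PSME1, chr17:38752591-38752740 (plus strand, 150 bases) for PSMB3, chr14:23035231-23035370 (minus strand, 140 bases) for PSMB5 and chr17:39980657-39980806 (plus strand, 150 bases) for PSMD3.
PSMG1: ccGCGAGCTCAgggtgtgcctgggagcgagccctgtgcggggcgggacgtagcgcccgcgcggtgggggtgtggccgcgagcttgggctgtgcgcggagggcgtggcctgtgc
PSME1: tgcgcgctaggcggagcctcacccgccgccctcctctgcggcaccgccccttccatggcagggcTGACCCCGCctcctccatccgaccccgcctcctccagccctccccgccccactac
PSMB3: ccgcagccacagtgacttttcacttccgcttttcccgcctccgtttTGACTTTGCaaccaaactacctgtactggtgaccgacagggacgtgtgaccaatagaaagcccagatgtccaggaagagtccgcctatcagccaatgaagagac
PSMB5: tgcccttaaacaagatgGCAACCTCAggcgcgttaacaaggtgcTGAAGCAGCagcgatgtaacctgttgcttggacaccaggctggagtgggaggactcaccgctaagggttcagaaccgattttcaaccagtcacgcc
PSMD3: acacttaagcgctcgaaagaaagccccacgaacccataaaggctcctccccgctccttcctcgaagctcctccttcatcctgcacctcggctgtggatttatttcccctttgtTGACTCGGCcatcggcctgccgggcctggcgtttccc
Each of the 5 stretches, which differ in length, held a match, and that of PSMB5 held 2. The full windows of PSMG1 and PSMD3 held further matches outside the stretches shown. Windows of other members held none, among them those of PSME3, which rose, and PSMG4, which fell.

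In the core particle, 9 of 14 subunits tested rose (64.3%), 4 of 7 alpha and 5 of 7 beta subunits. Over all genes tested 23.6% rose and 26.5% fell. Of the alpha subunits that rose, PSMA1, PSMA2 and PSMA6 share most of their coding bases with another gene, as described below. None fell by edgeR or by DESeq2, and 0 were lower at an unadjusted p under 0.05 by either tool. The summed level of the core was 1908, 1946 and 1757 CPM in DMSO and 2305, 2361 and 2310 CPM upon FT671, a rise of 24.3% with no overlap of the groups. On the log2 scale the median change of the alpha subunits was 0.20 and that of the beta subunits 0.41.

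The catalytic subunits did not move together. PSMB7 (chr9:124353465-124415444, trypsin-like activity) gave 189, 205 and 172 CPM in DMSO and 298, 280 and 265 CPM upon FT671. All 3 FT671 libraries lay above all DMSO libraries, with a log2 fold change of 0.57 (SE 0.080, 95% interval 0.40 to 0.74, adjusted p = 5.46e-05). PSMB6 (chr17:4796144-4798502, caspase-like activity) rose from 94.9, 104 and 84.6 CPM to 131, 122 and 126 CPM (0.41, SE 0.085, adjusted p = 0.00117), again without overlap. PSMB5 (chr14:23016543-23035230), which carries the chymotrypsin-like activity and is the target of the drug bortezomib, gave 147, 140 and 118 CPM in DMSO and 121, 122 and 127 CPM upon FT671. These groups overlapped, and its log2 fold change of −0.13 (SE 0.085, 95% interval −0.32 to 0.05) did not pass the test (adjusted p = 0.206). With a correction for gene length it was called lower at −0.27, and without DMSO replicate 3, the lowest of its DMSO values, at −0.22.

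The catalytic subunits were also compared with each other within each library. Per length of exon, PSMB5 held 35.6%, 32.5% and 33.1% of the summed level of PSMB5, PSMB6 and PSMB7 in DMSO and 23.3%, 24.7% and 25.8% upon FT671. Its share was thus lower in each FT671 library than in every DMSO library, by 9.17 percentage points on average (two-sided exact permutation test, p = 0.1, the smallest that 3 libraries against 3 allow, so it could not pass 0.05). The share of PSMB7 went from 40.9% ± 1.05 (SD, n = 3) to 48.5% ± 1.55 and that of PSMB6 from 25.3% ± 0.629 to 26.9% ± 0.530. As a ratio of CPM, which does not depend on a gene length, PSMB5 over PSMB7 was 0.777, 0.679 and 0.691 in DMSO and 0.405, 0.437 and 0.478 upon FT671.

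**Figure D2:**
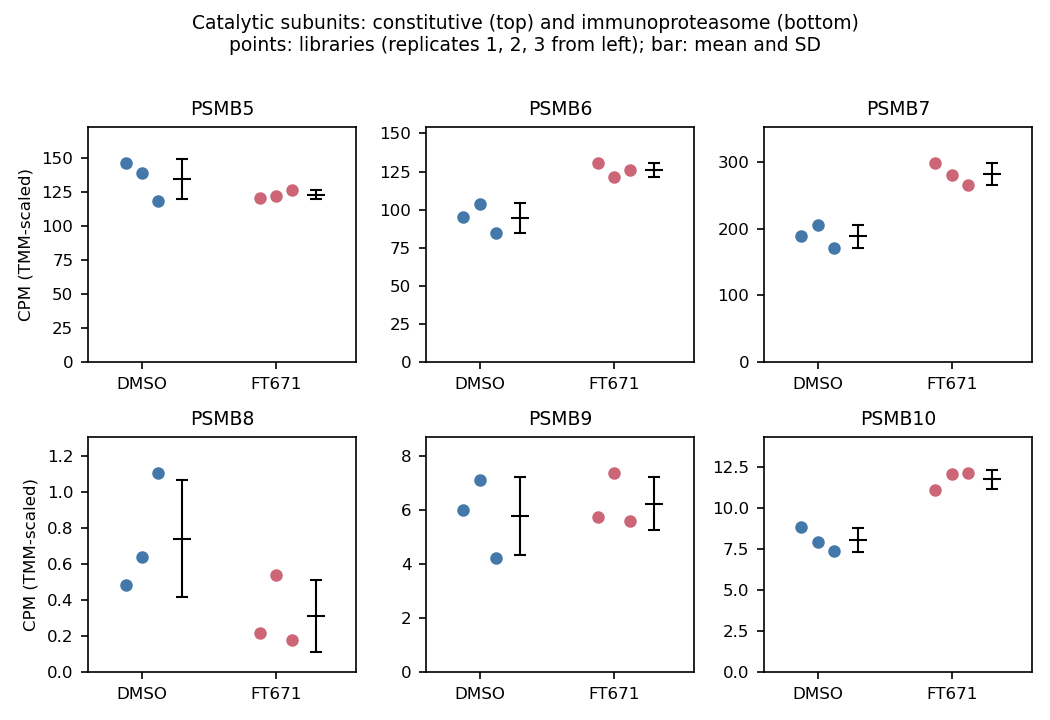
CPM, scaled by TMM, of the constitutive catalytic subunits and their immunoproteasome counterparts in each library, with mean and SD (n = 3). PSMB6, PSMB7 and PSMB10 have all FT671 libraries above all DMSO libraries, PSMB5 and PSMB9 overlap, and PSMB8 lies at 0.178 to 1.11 CPM.

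Of the 4 structural beta subunits 3 rose, where 23.6% of all genes did. PSMB3 (chr17:38752741-38764225), with 166, 188 and 138 CPM in DMSO and 256, 225 and 234 CPM upon FT671, showed no overlap and a log2 fold change of 0.53 (SE 0.098, adjusted p = 0.000508). PSMB4 and PSMB1 rose by 0.41 (adjusted p = 0.000586) and 0.40 (adjusted p = 0.000707). PSMB2 had all FT671 libraries above the DMSO libraries but missed the threshold (0.17, SE 0.071, adjusted p = 0.0561). It passed with the length and the GC correction, and without DMSO replicate 2 (0.21), DMSO replicate 3 (0.15) or FT671 replicate 1 (0.23).

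Immunoproteasome subunits, which interferon induces and which replace the constitutive catalytic subunits in many immune cells, were near the bottom of the range. PSMB9, the counterpart of PSMB6, gave 6.005, 7.12 and 4.24 CPM in DMSO and 5.76, 7.37 and 5.61 CPM upon FT671, with full overlap and a log2 fold change of 0.04 (95% interval −0.42 to 0.50, adjusted p = 0.894). PSMB10, the counterpart of PSMB7, gave 8.83, 7.94 and 7.37 CPM and then 11.1, 12.05 and 12.1 CPM, without overlap (0.53, SE 0.148, adjusted p = 0.00853). Per exon length, the immunoproteasome subunits held 2.61% ± 0.083 (SD, n = 3) of the summed level of all 6 catalytic subunits in DMSO and 2.76% ± 0.237 upon FT671, a difference smaller than the spread. Most of this share came from PSMB10, of which 58.3% of the coding bases are shared with a readthrough gene, as described below. Its count may therefore be too low, and the size of this effect on the share was not tested. PSMB8 and PSMB9 lie side by side on chromosome 6 and share exon bases with each other and with the transcript PSMB8-AS1, antisense to PSMB8. Whether reads in bases shared across strands were counted or left out is not known, since the strand setting is not given.

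Among the alpha subunits, PSMA7 had the smallest change. It gave 183, 173 and 154 CPM in DMSO and 206, 186 and 176 CPM upon FT671, so the groups overlapped (log2 fold change 0.15, SE 0.084, adjusted p = 0.157), and it passed with the GC correction (0.22). PSMA3 (0.19, adjusted p = 0.0949) and PSMA4 (0.18, adjusted p = 0.114) did not pass either, although both passed without DMSO replicate 3 (0.20 and 0.24) and PSMA4 also with the length (0.29) and the GC (0.19) correction. PSMA5, with 0.20 (adjusted p = 0.0326), lost its call with library totals (0.17), without the filter (0.16), by DESeq2's Wald test (0.20), with the GC correction (0.15), without DMSO replicate 1 (0.22) or without FT671 replicate 1 (0.22), 2 (0.20) or 3 (0.19).

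The 3 alpha subunits with the largest log2 fold changes need a separate reading. PSMA2 (chr7:42916828-42932185) gave only 0.414, 0.456 and 2.21 CPM in DMSO and 1.99, 2.70 and 1.78 CPM upon FT671. These overlapping values, of which DMSO replicate 3 lay apart from replicates 1 and 2, gave a log2 fold change of 1.42 with a wide interval (0.33 to 2.51, adjusted p = 0.0309). The call was lost by DESeq2's Wald test (1.25) and without any library other than DMSO replicate 3 (0.94 without DMSO replicate 1, 1.11 without DMSO replicate 2, 1.45, 1.25 and 1.61 without FT671 replicates 1, 2 and 3). PSMA1 (chr11:14504874-14643635) rose from 20.6, 16.1 and 20.3 CPM to 36.7, 30.6 and 28.5 CPM (0.74, SE 0.133, adjusted p = 0.000414). PSMA6 (chr14:35278633-35317493) rose from 38.7, 46.6 and 31.3 CPM to 49.6, 53.9 and 54.3 CPM (0.42, SE 0.124, adjusted p = 0.0113), a call that was lost without FT671 replicate 3 (0.40).

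In PSMA2, PSMA1 and PSMA6, 97.8%, 88.6% and 70.4% of the coding bases lie in exons of a further protein-coding gene annotated on the same strand, a readthrough transcript with a neighbour, which itself had 0 to 2 counts in a library. The same holds for the chaperone PSMD9 (58.7%, a readthrough gene with 0 counts) and for PSMB10 (58.3%, a readthrough gene with 3 to 21 counts). PSMA2, PSMA1 and PSMA6 had the lowest CPM of the 7 alpha subunits tested and PSMD9 that of the regulatory particle chaperones, and all 5 genes were called higher. The part that the shared exons play in these values was not tested. Without these 5 genes, 22 of 42 members rose, 2 fell and the median log2 fold change was 0.22, and of the alpha subunits only PSMA5 remained among those that rose.

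Since all constitutive core subunits enter the particle in equal number, their levels were compared per exon length, scaled to a common total (TPM). The order in DMSO ran from PSMB3 (467 ± 46.3, SD, n = 3) over PSMB7 (351 ± 13.9), PSMB1 (341 ± 21.7) and PSMA7 (323 ± 16.2) down to PSMA4 (53.9 ± 8.70), PSMA1 (20.9 ± 3.56), PSMA6 (19.8 ± 2.89) and PSMA2 (0.425 ± 0.445). PSMA1, PSMA6 and PSMA2 are the alpha subunits with shared coding exons, and STAR's gene counting leaves out reads in such exons. Their values are thus no measure of the level of these subunits beside the others, and the size of this effect was not tested. Of the 13 neighbouring pairs in this order 7 had overlapping libraries, among them PSMB7 and PSMB1, PSMB1 and PSMA7, and PSMB4 and PSMB5. PSMB3 stayed on top upon FT671 with 654 ± 38.8 TPM. PSMB5 moved from rank 6 to rank 7, from 290 ± 19.3 to 255 ± 7.96 TPM, and was overtaken by PSMB6, which went from 217 ± 11.0 to 279 ± 7.77 TPM.

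**Figure D3:**
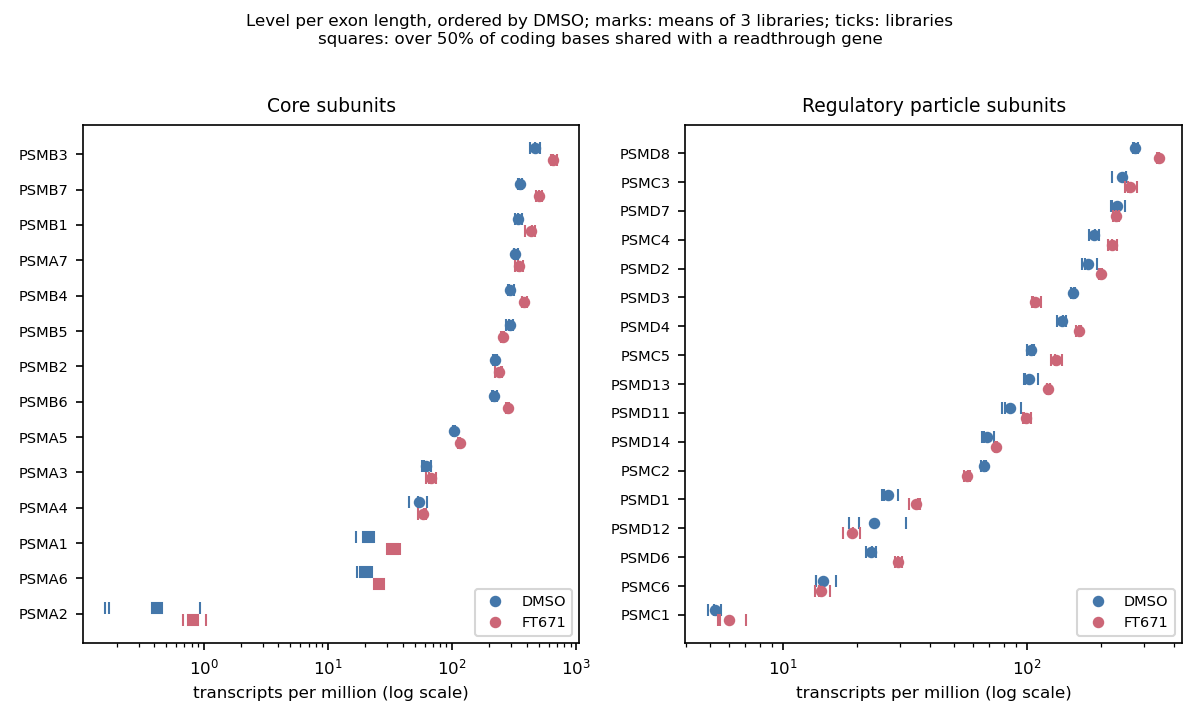
Level per exon length in TPM (log axis) of the core and regulatory particle subunits, ordered by their mean in DMSO, with ticks for the libraries and marks for the means. Core subunits span from PSMB3 at 467 to PSMA2 at 0.425 TPM in DMSO. In the regulatory particle the FT671 marks of PSMD3, PSMD12, PSMC2, PSMC6 and PSMD7 lie to the left of the DMSO marks. Those of PSMD12, PSMC6 and PSMD7 do so by less than the spread of the libraries. Squares mark PSMA1, PSMA2 and PSMA6, whose coding exons are mostly shared with a readthrough gene.

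In the regulatory particle 10 of 17 subunits rose (58.8%) and 1 fell (5.88%), beside 23.6% and 26.5% of all genes. The summed level was 2502, 2598 and 2430 CPM in DMSO and 2912, 2832 and 2854 CPM upon FT671, 14.2% higher and without overlap. Of the non-ATPases 8 of 11 rose (72.7%), against 2 of the 6 ATPases (33.3%), and whether these shares differ was not tested. The share of the ATPases is near that of all genes, and nothing particular to them is read from it.

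PSMD3 (chr17:39980807-39997959), a subunit of the lid of the regulatory particle, went the other way. It gave 228, 244 and 217 CPM in DMSO and 177, 162 and 160 CPM upon FT671. Every FT671 library lay below every DMSO library, the log2 fold change was −0.47 (SE 0.075, 95% interval −0.63 to −0.31, adjusted p = 0.000158), and the call held without each library in turn and in all fits with another scaling, filter or correction. Its exons are shared with no other annotated gene. Per exon length it fell from 155 ± 3.56 to 108 ± 5.28 TPM (SD, n = 3) and from rank 6 to rank 9 of the 17 regulatory particle subunits.

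The remaining lid and base subunits were mostly higher. PSMD1, a large scaffold of the base, rose most, from 122, 128 and 132 CPM to 162, 178 and 175 CPM (log2 fold change 0.44, SE 0.073, adjusted p = 0.000227). The lid subunits PSMD6 (0.42, adjusted p = 0.000774), PSMD8 (0.37, adjusted p = 0.000721), PSMD13 (0.32, adjusted p = 0.00157) and PSMD11 (0.29, adjusted p = 0.00372) rose, as did the base subunit PSMD2 (0.23, adjusted p = 0.00903) and the ubiquitin receptor PSMD4 (0.27, adjusted p = 0.0111). All of these had FT671 libraries above all DMSO libraries.

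PSMD14, the deubiquitinase of the lid, went from 149 ± 2.91 to 170 ± 0.836 CPM (SD, n = 3), a log2 fold change of 0.19 (adjusted p = 0.0292). This call was lost with the GC correction (0.03), with library totals (0.16), without the filter (0.15), by DESeq2's Wald test (0.20), and without DMSO replicate 1 (0.17) or FT671 replicate 1 (0.20), 2 (0.19) or 3 (0.19). Its partner PSMD7 had 188 ± 3.76 and 195 ± 4.63 CPM (0.06, 95% interval −0.09 to 0.20, adjusted p = 0.504). PSMD12 gave 33.2, 30.9 and 47.9 CPM in DMSO and 32.3, 29.0 and 34.4 CPM upon FT671, with DMSO replicate 3 apart, and did not pass (−0.19, SE 0.148, adjusted p = 0.313).

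The ATPase ring, made of 6 different subunits, was less uniform. PSMC5 rose from 137, 143 and 120 CPM to 186, 166 and 173 CPM (log2 fold change 0.38, SE 0.082, adjusted p = 0.00151) and PSMC4 from 144 ± 14.5 to 178 ± 8.23 CPM (0.29, adjusted p = 0.00903). Of the exon bases of PSMC5, 15.3% are shared with FTSJ3 on the opposite strand, which rose as well (0.57). PSMC2 gave 170, 180 and 165 CPM in DMSO and 155, 147 and 157 CPM upon FT671, all FT671 libraries below all DMSO libraries, but it missed the threshold (−0.17, SE 0.071, adjusted p = 0.0612). It was called lower when libraries were scaled by their totals (−0.20), with the GC correction (−0.21) and without DMSO replicate 3 (−0.20). PSMC1 (0.26, adjusted p = 0.191), PSMC3 (0.16, adjusted p = 0.168) and PSMC6 (0.06, adjusted p = 0.670) did not pass, of which PSMC3 was called higher with the GC correction (0.23).

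Per exon length, regulatory particle subunits in DMSO ranged from PSMD8 (277 ± 7.73 TPM, SD, n = 3) to PSMC6 (14.6 ± 1.64 TPM) and PSMC1 (5.23 ± 0.328 TPM). PSMC1 shares 76.1% of its exon bases with NRDE2 on the opposite strand and has 13 pseudogene copies. With the count of PSMC1 as deposited divided by its unshared exon bases alone, the level in DMSO was 21.9 TPM. Whether that count holds reads in the shared bases is not known, since the strand setting is not given. Neither value is thus a sure measure of its level. Pseudogenes as a whole took few counts, with 205 counts on 44 copies of 17 members against 310393 counts on the members themselves.

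Of the 4 activators, 3 rose, where 23.6% of all genes did, and the summed level of the activators was 35.6% higher. PSME1 and PSME2, which form the interferon-inducible activator PA28αβ and are close neighbours on chromosome 14, rose together. PSME1 (chr14:24136163-24138967) gave 76.1, 74.8 and 71.3 CPM in DMSO and 110, 108 and 111 CPM upon FT671 (log2 fold change 0.56, SE 0.074, adjusted p = 3.12e-05). PSME2 (chr14:24143362-24147570) gave 48.2, 50.8 and 45.1 CPM and then 70.4, 79.1 and 80.9 CPM (0.68, SE 0.091, adjusted p = 3.52e-05). In both genes the FT671 libraries stood clear of the DMSO libraries, while the ratio of PSME1 to PSME2 was 1.54 ± 0.062 in DMSO and 1.43 ± 0.112 upon FT671.

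PSME3 (chr17:42824385-42843760), which forms the nuclear activator PA28γ, gave 154, 147 and 180 CPM in DMSO and 236, 246 and 256 CPM upon FT671, without overlap (log2 fold change 0.63, SE 0.083, adjusted p = 3.14e-05). Only 5.82% of its exon bases are shared, with BECN1 on the opposite strand, which fell (−0.49). PSME4, the activator PA200, gave 168, 149 and 211 CPM in DMSO and 186, 183 and 197 CPM upon FT671. These overlapped, with the DMSO libraries spread on both sides, and it did not pass (0.11, SE 0.105, adjusted p = 0.393). It passed with the gene length correction (0.25) and without DMSO replicate 3 (0.25). The inhibitor PSMF1, with 213, 236 and 196 CPM in DMSO and 213, 224 and 226 CPM upon FT671, overlapped too (0.04, 95% interval −0.13 to 0.20, adjusted p = 0.723).

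**Figure D4:**
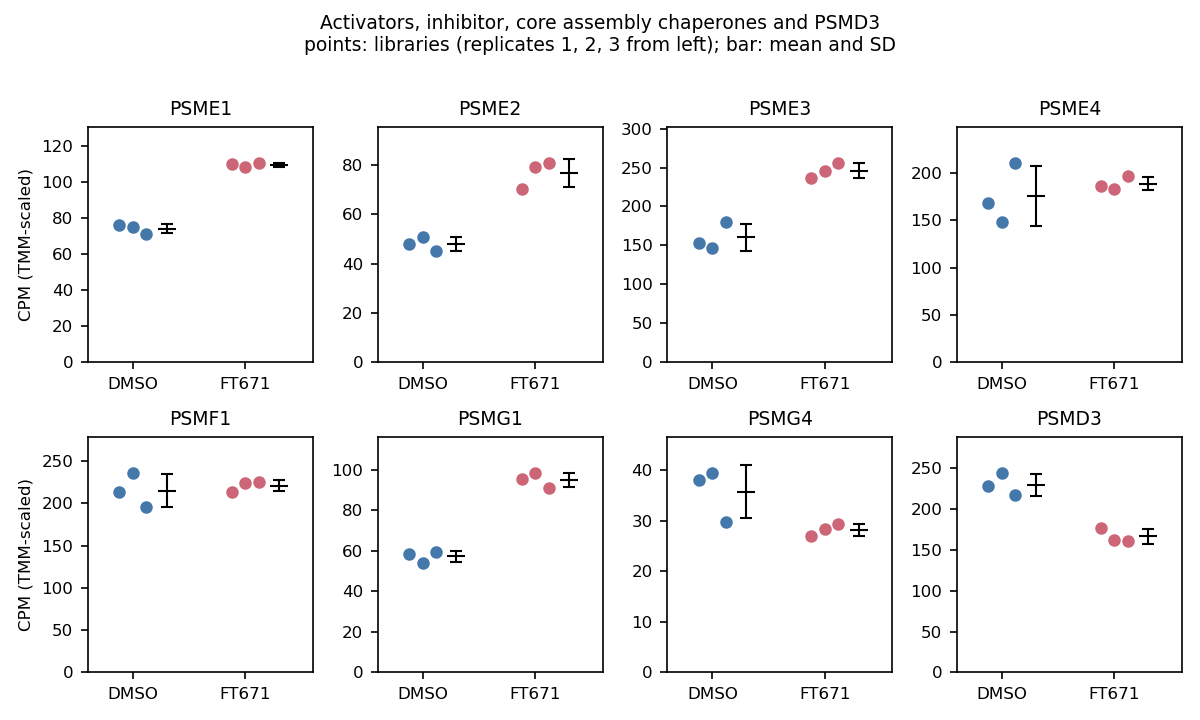
CPM, scaled by TMM, of the activators, the inhibitor PSMF1, the assembly chaperones PSMG1 and PSMG4 and the lid subunit PSMD3 in each library, with mean and SD (n = 3). PSME1, PSME2, PSME3 and PSMG1 separate upwards upon FT671, PSMD3 and PSMG4 downwards, and PSME4 and PSMF1 overlap.

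Of the 7 assembly chaperones 2 rose (28.6%) and 1 fell (14.3%), beside 23.6% and 26.5% of all genes, and nothing particular to the chaperones is read from these shares. PSMG1 (chr21:39174769-39183488), which with PSMG2 starts the assembly of the alpha ring, gave 58.5, 54.1 and 59.3 CPM in DMSO and 95.4, 98.4 and 91.1 CPM upon FT671. The groups lay far apart, with a rise of 65.6% (log2 fold change 0.73, SE 0.081, 95% interval 0.55 to 0.90, adjusted p = 7.06e-06). Its partner PSMG2 gave 34.0 ± 1.52 CPM in DMSO and 38.2 ± 3.74 CPM upon FT671 (SD, n = 3), which did not pass (0.16, adjusted p = 0.211) other than with the gene length correction (0.29).

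PSMG3 and PSMG4 form the other chaperone pair of the alpha ring. PSMG4 (chr6:3231403-3303373) gave 38.1, 39.4 and 29.8 CPM in DMSO and 27.01, 28.4 and 29.4 CPM upon FT671, a fall with barely separate groups (log2 fold change −0.35, SE 0.118, adjusted p = 0.0229). The call was lost by DESeq2's Wald test (−0.35), with the gene length correction (−0.23) and without any library but DMSO replicate 3 (−0.31 and −0.28 without DMSO replicates 1 and 2, −0.32, −0.35 and −0.38 without FT671 replicates 1, 2 and 3). Of its exon bases 13.3% are shared with SLC22A23 on the opposite strand, which fell (−1.53). The part of that gene in the value was not tested. PSMG3 did not pass (−0.15, SE 0.142, adjusted p = 0.396), other than without DMSO replicate 3 (−0.28).

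Of the chaperones of the regulatory particle, PSMD10, also known as the oncoprotein gankyrin, gave 39.6, 43.5 and 41.8 CPM in DMSO and 38.5, 40.6 and 33.6 CPM upon FT671, which overlapped (log2 fold change −0.16, SE 0.104, adjusted p = 0.219). PSMD5 had 90.4 ± 9.31 and 87.7 ± 3.39 CPM (SD, n = 3) and did not pass (−0.03, adjusted p = 0.788). PSMD9, a gene with shared coding exons, gave 9.73, 9.13 and 5.53 CPM and then 10.2, 11.5 and 13.4 CPM (0.49, SE 0.190, adjusted p = 0.0458). Its call was lost by DESeq2's Wald test (0.50), with library totals (0.45), without DMSO replicate 2 (0.55) or 3 (0.34) and without FT671 replicate 2 (0.51) or 3 (0.36).

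Other genes of the ubiquitin-proteasome pathway, 31 in a list chosen with earlier results of these data known, all passed the filter. The list covers further subunits, bound factors, transcription factors, shuttle proteins and ubiquitin genes. Of these 18 rose (58.1%), 6 fell (19.4%) and 7 did not pass, with a median log2 fold change of 0.30. Over all genes tested 23.6% rose and 26.5% fell, with a median of −0.01. At 1e-05 none of the 31 rose and 2 fell by edgeR, where 1.79% of all genes rose and 4.13% fell. By DESeq2's Wald test 3 rose and 4 fell at 1e-05, against 5.06% and 7.36% of all genes. At an unadjusted p under 0.05, 19 were higher by edgeR.

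Some genes without a PSM symbol encode proteins of the proteasome or bound to it. Of the 5 described next 4 were higher, where 23.6% of all genes rose. Other bound factors of the list differed. TXNL1 rose (log2 fold change 0.24), ECPAS (−0.14, adjusted p = 0.188) and PAAF1 (0.22, adjusted p = 0.0616) did not pass, and UBE3C fell (−0.70). The small lid subunit SEM1 gave 70.2, 73.8 and 68.0 CPM in DMSO and 86.6, 90.1 and 93.3 CPM upon FT671 (log2 fold change 0.35, SE 0.079, adjusted p = 0.00214), a call that was lost with the GC correction (0.17). The maturation protein POMP, which helps to join the beta rings, rose from 93.7, 97.3 and 111 CPM to 124, 139 and 139 CPM (0.42, SE 0.086, adjusted p = 0.00110). USP14 and UCHL5, the deubiquitinases that bind the regulatory particle, rose from 97.6 ± 12.6 to 138 ± 5.14 CPM (0.51, adjusted p = 0.000364) and from 89.7 ± 6.65 to 128 ± 4.23 CPM (0.52, adjusted p = 0.000108). The ubiquitin receptor ADRM1 overlapped, with 133 ± 16.0 and 130 ± 11.2 CPM (−0.04, adjusted p = 0.748).

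The transcription factor NFE2L1, in contrast, was lower. It gave 264, 272 and 253 CPM in DMSO and 185, 178 and 173 CPM upon FT671, with all FT671 libraries below the DMSO libraries (log2 fold change −0.56, SE 0.069, adjusted p = 1.64e-05). DDI2 and NGLY1, which process the NFE2L1 protein into its active form, rose by 0.44 (adjusted p = 0.00137) and 0.53 (adjusted p = 0.000407), although 60.0% of the coding bases of DDI2 are shared with RSC1A1, which had no counts. VCP, the ATPase that extracts ubiquitinated proteins, NFE2L1 among them, from membranes and complexes, gave 271, 267 and 257 CPM in DMSO and 121, 113 and 112 CPM upon FT671. It thus fell by 56.6% (−1.21, SE 0.071, adjusted p = 3.31e-08), and the groups lay far apart. Its cofactor NPLOC4 fell from 146, 142 and 137 CPM to 81.0, 70.7 and 71.7 CPM (−0.93, SE 0.080, adjusted p = 6.44e-07), whereas UFD1, the partner of NPLOC4, rose from 254 ± 14.3 to 327 ± 3.10 CPM (0.36, adjusted p = 0.000606).

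A further 3 pathway genes fell. They were the proteasome-bound ubiquitin ligase UBE3C (log2 fold change −0.70, adjusted p = 1.06e-05), AKIRIN2, a factor for the nuclear import of proteasomes (−0.54, adjusted p = 0.000317), and the transcription factor NFE2L2 (−0.38, adjusted p = 0.00538). NFE2L2 shares 23.4% of its exon bases with HNRNPA3 on the opposite strand, which rose (0.97). The ubiquitin genes UBB (0.48, adjusted p = 6.14e-05) and RPS27A (0.30, adjusted p = 0.0171) rose, of which RPS27A lost its call without FT671 replicate 1 (0.26) or 3 (0.28). Of the coding bases of UBB 56.2% are covered by a non-coding gene on the opposite strand, which rose as well (0.50).

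**Figure D5:**
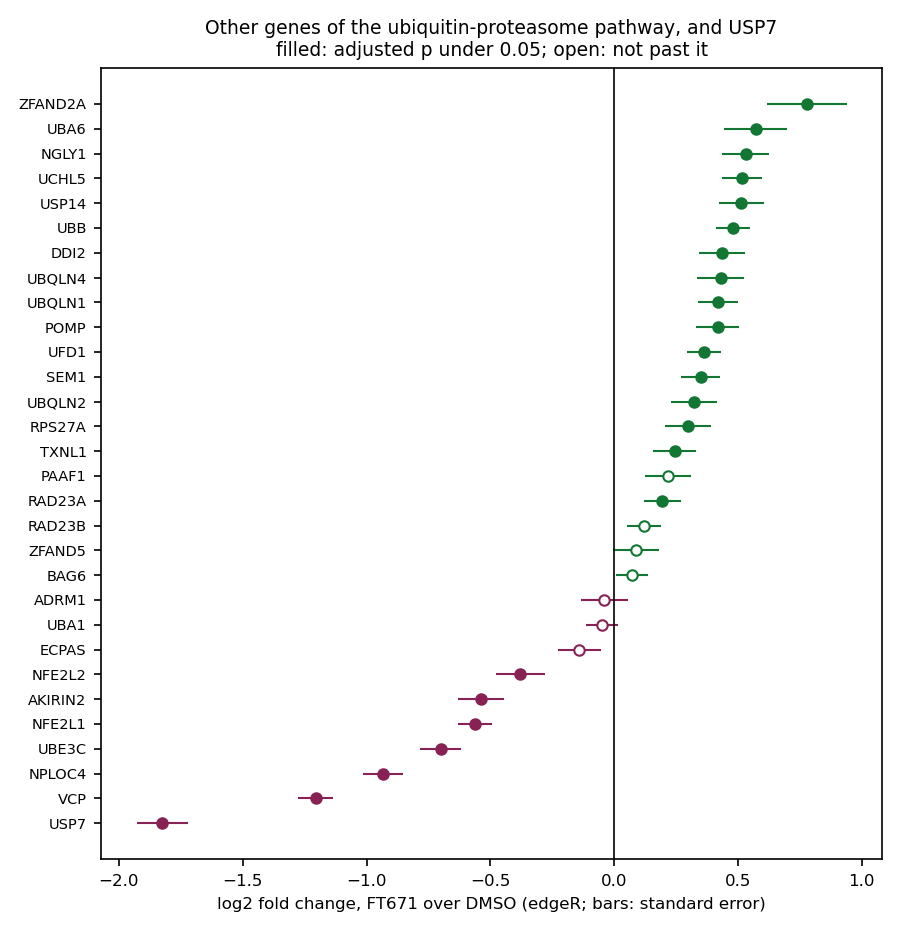
Log2 fold changes, FT671 over DMSO, of 29 other genes of the ubiquitin-proteasome pathway and of USP7 (edgeR, 3 libraries a group, bars are standard errors, filled points pass an adjusted p-value of 0.05). The lower end holds USP7 at −1.82, VCP at −1.21 and NPLOC4 at −0.93, the upper end ZFAND2A at 0.78.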

How the data were processed

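For RNA-seq of K562 cells, ribosomal RNA was removed from total RNA and paired-end reads were obtained. The authors ran STAR (two-pass mode, hg38) and deposited its raw read counts for each gene. The version of STAR, the annotation release and the strand setting are not given in the sources used here. STAR's own gene counting leaves out reads that overlap exons of more than 1 gene, which lowers the counts of genes with shared exons. Of 60609 gene identifiers, 60295 were matched to GENCODE release 44, and the 314 not matched held 0.061% of the counts.

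Computations used R 4.3.3, edgeR 4.0.16, limma 3.58.1, DESeq2 1.42.0 and Python 3.11.15. Genes were filtered with filterByExpr, libraries scaled by TMM, and groups compared over all 6 libraries, with no covariate, by the quasi-likelihood test of edgeR with Benjamini-Hochberg adjustment over all 13895 genes tested. Intervals are 95% intervals. CPM use TMM-scaled library sizes, and TPM use the union of exons of a gene as length. Fits were also run on simulated counts, with the same spread set for every gene and changes added only to genes above a minimum count. That run does not cover members with few counts, and no result is drawn from it here.

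The symbol rule uses no measured value, but the members and lists were chosen with earlier results of these data known. Values in every library are given for catalytic and immunoproteasome subunits, activators and PSMF1, the members with the largest changes among those called (up to 5 in each direction), the highest and lowest of each role, and chosen pathway genes. PSMB3 was added since it has the highest level per length. Other members are given by their counts and folds. Of the pathway list, 2 genes are counted but not reported here.

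Alternatives were DESeq2's size factors, library totals, DESeq2's Wald test, a minimum of 10 counts in each library in place of filterByExpr, no filter, the replicate number as a block, loess corrections (span 0.3) for exon length and for GC content with and without the block, each library left out, and other gene lengths. Leaving out members that share over 50% of their coding bases with another gene on the same strand, and lengths of unshared exon bases, were chosen after seeing the data.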

Additional observations from a re-analysis of the deposited data

How the results depend on the processing

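No called value changed sign in any alternative run. Proteasome genes called higher (27) numbered between 22 and 31 in all fits at 0.05, and 1 at 1e-05. The 2 called lower became 1 by DESeq2's Wald test, 4 with the GC correction and the replicate block together, and 0 at 1e-05. Leaving out 1 library at a time gave 22 to 30 higher and 1 to 5 lower, where 5 (PSMD3, PSMG4, PSMB5, PSMC2 and PSMG3) came without DMSO replicate 3. The median log2 fold change of 0.27 moved to 0.24 with library totals, 0.23 without the filter, 0.31 with the GC correction, with or without the block, and 0.22 without members sharing coding exons, and ranged from 0.24 to 0.32 over the libraries left out.

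By role, core alpha subunits called higher (4) were 2 by DESeq2's Wald test, 0 at 1e-05, 1 without members sharing exons and 1 to 6 with a library left out. At 1e-05 core beta, immunoproteasome, ATPase, non-ATPase and activator genes called higher numbered 0, as did non-ATPases and assembly genes called lower. Without members sharing exons 0 immunoproteasome genes were higher. Core beta subunits called lower were 1 with the length correction, with or without the block, and 0 to 1 with a library left out, and core beta subunits called higher 5 to 6. ATPases called lower were 1 with library totals and with the GC correction, with or without the block, and 0 to 1 with a library left out. Non-ATPases called lower were 2 with the GC correction and the block. Assembly genes called higher were 1 with library totals, DESeq2's Wald test, 1e-05 or without members sharing exons, and 1 to 2 with a library left out, and those called lower were 0 by DESeq2's Wald test or with the length correction, with or without the block, and 0 to 2 with a library left out. Non-ATPases called higher were 7 to 8, and activators with PSMF1 called higher 3 to 4, over the libraries left out. Other pathway genes called higher were 0 at 1e-05 and 15 to 18 with a library left out, those called lower 2 at 1e-05. Over all genes, 249 were higher and 574 lower at 1e-05, and with a library left out 2522 to 3830 and 2973 to 4100.

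The share of PSMB5 among PSMB5, PSMB6 and PSMB7 was 28.7% in DMSO and 20.4% upon FT671 with the longest transcript as length, and 23.2% upon FT671 from CPM without length. Same-numbered DMSO and FT671 libraries correlated with r = 0.115, −0.0605 and 0.140 in their deviations from the group means, across genes, which are not independent replicates, so the numbers were not taken to pair the libraries. With the replicate block 27 members were higher and 2 lower, with PSMA2 losing its call (1.25, adjusted p = 0.0560 by edgeR) and PSMB2 gaining it (0.17, adjusted p = 0.0394). With 3 libraries a group and 4555220 counts in the shallowest, PSMB8 had too few counts to be tested, and PSMA2, PSMB9 and PSMD9, with few counts, had the widest standard errors of the members tested.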
